A study of Homo sapiens with 24 samples.

Results

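DN-POLG cells at day 9 of doxycycline were compared with DN-POLG cells at day 3 of doxycycline. DN-POLG cells are human embryonic kidney (HEK293) cells that carry a mutant DNA polymerase gamma, the enzyme that copies mitochondrial DNA (mtDNA), under a promoter that doxycycline turns on. The mutant protein acts as a dominant negative on the cell's own enzyme, and mtDNA is lost while the drug is present. The arrays were chosen by their labels, the line DN-POLG with day 9 or day 3, and are 6 of the 24 arrays of the series, 3 at day 9 and 3 at day 3. Both groups carried the transgene and received doxycycline without a break, so the comparison holds no cells that were never induced. The uninduced day 0 arrays showed levels and entered the fit only through its spread and signal filter. The other arrays hold DN-POLG cells at days 0 and 6, HEK293 DN-POLG cells that also express the enzymes AOX and NDI1 at days 0 and 9, and the osteosarcoma line 143B with and without mtDNA. The labels call the line HEK293 and the study's methods HEK293T. The replicates are labelled as independent cultures, 3 in each group. The p-values and SEs rest on a spread pooled over 6 groups. These are the 4 days of DN-POLG cells and days 0 and 9 of AOX/NDI1 cells, and not days 9 and 3 alone. By the labels the medium held high glucose, uridine and pyruvate. In the study's scheme a day 9 sample pools the flasks of repeated splits and a day 3 sample is a single flask, so loss of mtDNA, days on doxycycline, days in culture and pooling cannot be told apart.

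Human mtDNA encodes subunits of respiratory complexes I, III, IV and V, together with the transfer and ribosomal RNAs that translate them. Its genes are read as long transcripts from both strands and then cut into single RNAs, with ND6 the only subunit encoded on the light strand. All other respiratory subunits, the mitochondrial ribosome and the polymerase itself come from nuclear genes. Cells with failing mitochondria are known to phosphorylate eIF2 alpha, which lowers general translation and favours that of ATF4, a transcription factor for amino acid transport, serine and one-carbon enzymes and transfer RNA synthetases. ATF3, DDIT3, ASNS, MTHFD2 and the secreted factors GDF15 and FGF21 are established members of this response in human cells.

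RNA was measured on Affymetrix HG-U133 Plus 2.0 arrays, which read a gene through 1 or more probe sets near the 3′ end of its transcripts. Values are MAS5 signals on a linear scale, and changes are log2 of day 9 over day 3, so 1 stands for a 2-fold rise. The 6 arrays correlated with the mean of the other 2 arrays of their group at 0.952 to 0.980, the lowest being day 3 replicate 2. The median SD of log2 signal among replicates was 0.27 at day 9 and 0.28 at day 3, against 0.40 at day 0. Over all fitted groups it ran from 0.15 (AOX/NDI1 day 0) to 0.44 (DN-POLG day 6). The 3′ to 5′ signal ratio of ACTB, a measure of RNA integrity, was 1.06, 1.15 and 1.77 at day 9, against 1.62, 1.81 and 1.30 at day 3. The ACTB ratios overlapped (exact permutation test, two-sided, p = 0.3, with 0.1 the smallest that 3 against 3 can give). That of GAPDH lay between 0.964 and 1.05 on all 6 arrays (exact p = 0.8). Of 14 HEK293 markers on the array, 12 had a signal above the filter used for testing, NEFM and SOX11 being below, and their summed signal spanned 63766 to 80236 at day 9, against 52539 to 76137 at day 3. Of 7 blood and endothelial markers 2 passed, with PTPRC, CD3E, LYZ, CDH5 and VWF below it, and their sum was 255 to 416 at day 9, against 310 to 385 at day 3. Mesenchymal markers passed in 11 of 20 cases, summed to 10815 to 15330 at day 9, against 9904 to 11128 at day 3, and 1 of them (CAV1) was called, lower on its dimmer probe set, while the filter left out COL1A2, COL6A3, SPARC, LUM, DCN, POSTN, THY1, ALPL and S100A6. The part of these sums in the results was not tested.

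The POLG transgene was on in both groups, and of the 7 mtDNA-encoded genes with a named probe set 3 fell between day 3 and day 9 while 4 did not pass the test. Over all tested genes 12.8% had a lower call. The brighter POLG probe set (217635_s_at) read 2834, 4739 and 4268 at day 9, against 2899, 3755 and 2930.2 at day 3. These groups overlapped, with a log2 change of 0.28 ± 0.53 (SE), adjusted p = 0.807, and before doxycycline the same probe set read 307, 421 and 280.1. The second POLG probe set (203366_at) read 1019, 1207 and 1298 at day 9, against 1342, 959 and 1087 at day 3, and 1179.6, 1295 and 643 before induction.

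ATP6, a subunit of ATP synthase, fell most of the mtDNA genes by its brighter probe set (1553567_s_at), which read 2891, 4418 and 2712 at day 9, against 10803, 11067 and 17667 at day 3. The groups lay far apart, with a log2 change of -1.98 ± 0.38 (SE), adjusted p = 0.00312. Its dim probe set (242131_at) read 37.6, 9.67 and 18.8 at day 9, against 132, 44.7 and 168 at day 3, and its change of -2.39 lost the call without any 1 of day 9 replicates 2 and 3 and day 3 replicates 1 and 3 (adjusted p 0.0564 to 0.0978). COX2, the subunit of complex IV that takes electrons from cytochrome c, had signals of 13797, 11823 and 10692 at day 9, against 26196, 44615 and 28831 at day 3 (1553570_x_at). All day 9 values lay below all day 3 values (log2 change -1.42 ± 0.24 (SE), adjusted p = 0.00127), and its second probe set (1553569_at) gave -1.38 ± 0.22 (SE), adjusted p = 0.000775. ND6, the complex I subunit of the other strand, read 432, 580.0 and 547 at day 9, against 1483, 1555 and 2395 at day 3. Every day 9 array was lower here too, with a change of -1.78 ± 0.49 (SE), adjusted p = 0.0283. Among fits that left out 1 of the 6 compared arrays, only that without day 3 replicate 2 kept the call. Without any 1 of the other 5 arrays the adjusted p was 0.0582 to 0.122. The ND6 call was also lost with the 9 arrays of DN-POLG days 3, 6 and 9 (0.0639), no signal filter (0.0801) and the ANOVA of the study's methods (0.056).

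The remaining mtDNA genes gave smaller or less even differences. ND2 of complex I read 7863, 9193 and 12849.8 at day 9, against 11551, 14417 and 13524 at day 3, with 1 day 9 array inside the day 3 range and a log2 change of -0.43 ± 0.23 (SE), adjusted p = 0.265. ND4, a complex I subunit encoded on the strand opposite to ND6, read 20453, 17681 and 18659 at day 9, against 16318, 23831 and 16705 at day 3, a log2 change of 0.02 ± 0.20 (SE), adjusted p = 0.97 with a 95% interval of -0.41 to 0.45. Its dimmer probe set (224372_at) was lower on all 3 day 9 arrays, at 13028, 14159 and 13761 at day 9, against 16002, 21269.9 and 16162 at day 3, without passing (adjusted p = 0.275). COX1, the catalytic core of complex IV, read 43975, 40023 and 44617 at day 9, against 38573, 69210.0 and 36183 at day 3. Its day 9 values lay among the day 3 values, day 3 replicate 2 being far above the rest, with a change of -0.10 ± 0.23 (SE), adjusted p = 0.845. COX3 of complex IV read 593, 1006 and 519 at day 9, against 1668, 513 and 2362 at day 3, with day 3 replicate 2 again unlike its group but here the lowest (adjusted p = 0.609). Nuclear copies of mtDNA sequence exist, and whether these probes also bind such transcripts was not tested. The study's RNA sequencing of the same cultures counted every mtDNA-encoded transcript as changed at some time point relative to uninduced cells. The study describes these transcripts as stable at its earliest time point on doxycycline. COX1 and ND4 lay in the brightest of 4 equal parts of tested probe sets (mean signals 1361 to 48864), as did COX2, which fell. Whether COX1 and ND4 probe sets track a fall in full was not tested, so the missing calls do not show lasting transcripts. Whether the fall of ATP6 differs from the change of COX1 or ND4 was not tested either, since signals of different probe sets are not on 1 scale. In bulk RNA, fewer cells that hold a transcript and less of it per cell cannot be told apart.

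**Figure D1:**
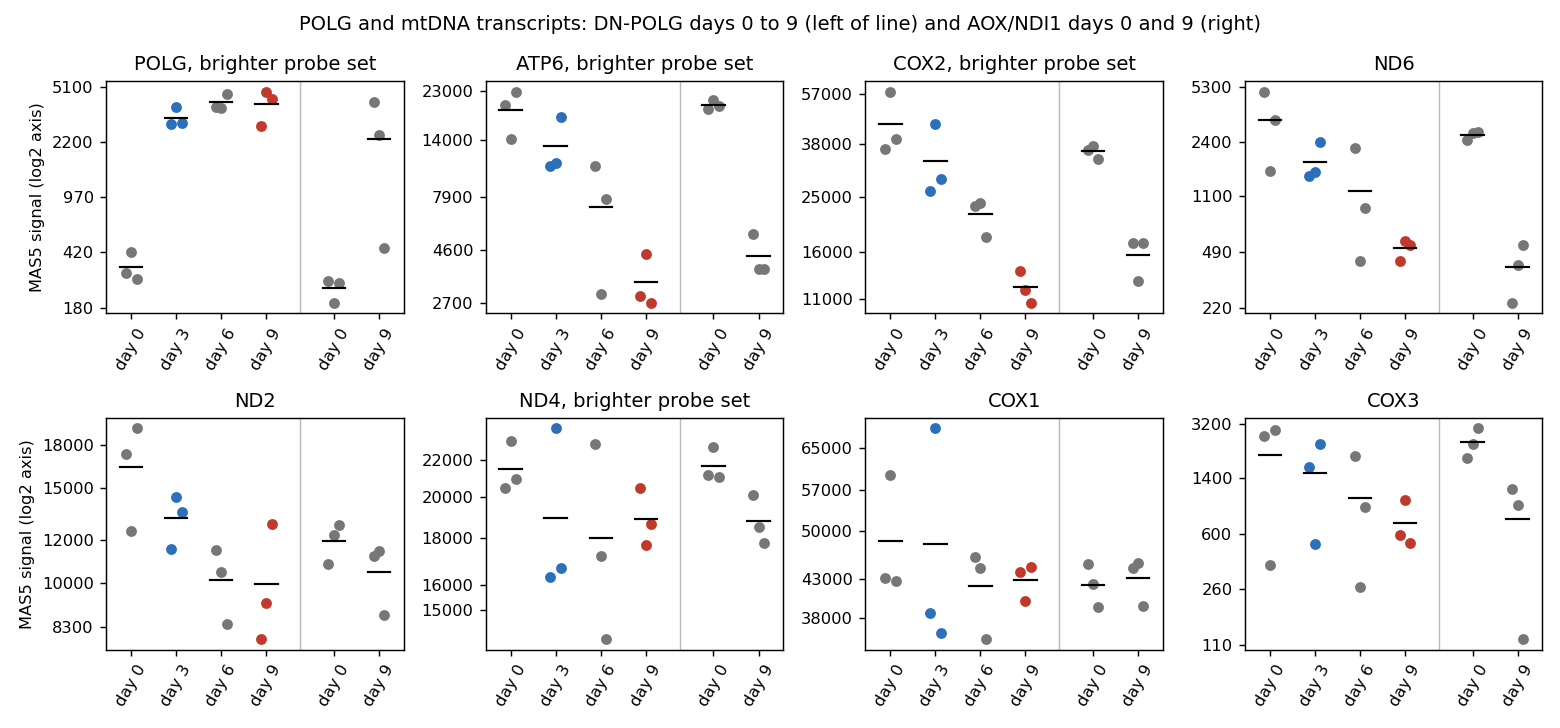
MAS5 signal (log2 axis) of POLG and 7 mtDNA-encoded genes on each array, 1 panel per gene, for the 4 days of the DN-POLG time course (left of the grey line) and AOX/NDI1 cells at days 0 and 9 (right), with day 9 in red, day 3 in blue and the mean as a bar. All day 9 points of ATP6, COX2 and ND6 lie below all day 3 points, those of ND4, COX1 and COX3 overlap them, and POLG is high at days 3, 6 and 9 alike.

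Beyond mtDNA, 2081 of 12104 genes (17.2%) had at least 1 probe set that passed limma's test at an adjusted p of 0.05, and lower calls outnumbered higher ones. Of these genes 530 were higher only, 1462 lower only and 89 had probe sets called in both directions, so 5.11% of genes had a higher and 12.8% a lower call. Over probe sets there were 689 higher and 1907 lower calls among 23132. The day 9 and day 3 arrays did not overlap in 7940 of the 23132 probe sets, of which 2566 were called. A gap between the groups, given for many genes here, is thus common among probe sets that did not pass. The split depends on how arrays are scaled to each other: 26.5% of called probe sets were higher as deposited, 38.1% after quantile normalization (702 genes higher only, 1104 lower only) and 37.3% with all arrays set to one median (574 and 921). The median change over all genes was -0.07. Ordered by mean signal in 4 equal parts, dim to bright, 187, 221, 162 and 119 probe sets rose and 441, 645, 614 and 207 fell. The median change in these parts was -0.14, -0.17, -0.12 and 0.10, so the brightest transcripts lay slightly above and the others slightly below no change.

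**Figure D2:**
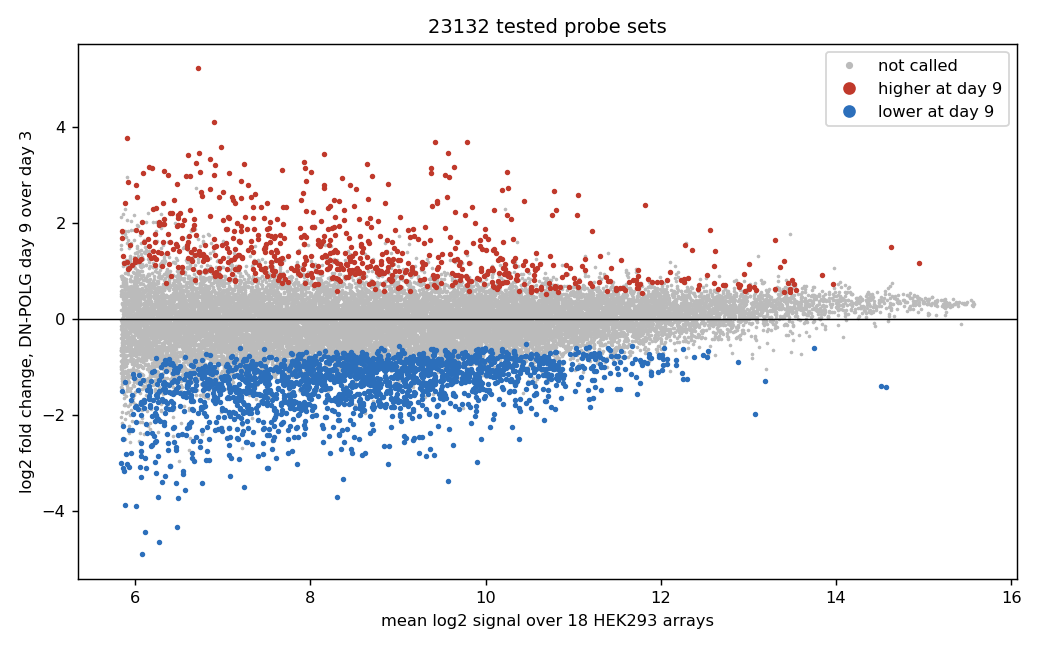
Log2 change of day 9 over day 3 for 23132 probe sets (vertical) against their mean log2 signal over 18 HEK293 arrays (horizontal), with 689 higher calls in red and 1907 lower calls in blue. Falls dominate over most of the range, the changes narrow as signal increases, and the 3 points above the largest named rise belong to STK17B, SRSF11 and CEP68, genes with other probe sets of the opposite sign, named here after their values were seen.

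Probe sets of 1 gene often disagreed, mainly among the rises. Of the 423 genes called higher only that had more than 1 tested probe set, the brightest one was called in 91 (21.5%) and had the same sign in 269, with a median change of 0.18. Of 1067 such genes called lower only, the brightest was called in 566 (53.05%) and shared the sign in 881, with a median of -0.80. Probe sets can read different transcript ends or retained introns, and those marked _x_at or _s_at can bind related transcripts. Each gene given below with its own values is therefore described by its brightest probe set as well as by the one that passed. Genes only listed as called can rest on a dimmer one. The brightest did not pass in CEBPG, MTR, COX4I1, SARS1, INSIG1, BHLHE40, SQSTM1, NAMPT and FNIP1, among others. In NAMPT (-0.03) and FNIP1 (-0.90) it had the sign opposite to the called rise.

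The 12 largest falls included a cell polarity protein, an ion channel, an endoplasmic reticulum protein and several regulators of transcription. VANGL1, a membrane protein of planar cell polarity, read 9.83, 5.53 and 7.72 at day 9, against 294, 122 and 315 at day 3 (229492_at), a log2 change of -4.91 ± 0.65 (SE), adjusted p = 0.000217. Its 2 other probe sets fell as well, the brightest (229997_at) by 1.39 on the log2 scale, at 262, 287 and 229 at day 9, against 701, 780.4 and 565 at day 3. All 3 probe sets of VANGL1 thus had every day 9 array below every day 3 array. KCNC1, a voltage-gated potassium channel, read 2.6, 57.2 and 3.87 at day 9, against 193, 148 and 322 at day 3 (230547_at, change -4.65 ± 0.78 (SE), adjusted p = 0.00125). TMCC1, a transmembrane protein of the endoplasmic reticulum, read 12.7, 46.4 and 1.77 at day 9, against 222, 207 and 233 at day 3 (213351_s_at, change -4.44 ± 0.73 (SE), adjusted p = 0.00108), whereas its brightest probe set changed by -0.69 without passing (adjusted p = 0.101). PPP1R10, a nuclear partner of protein phosphatase 1, had 30.3, 32.8 and 5.56 at day 9, against 323, 271 and 525 at day 3 (201703_s_at), and its change of -4.34 lost the call without day 9 replicate 3 (adjusted p = 0.0535). These values lie low in the range of the array on day 9, where a signal of a few units has little precision.

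Among regulators, HDAC4, a class IIa histone deacetylase that represses transcription, read 54.3, 4.92 and 44.3 at day 9, against 303, 150.2 and 434 at day 3 (204225_at, change -3.57 ± 0.74 (SE), adjusted p = 0.00498). HIVEP2, a zinc finger transcription factor, read 52.8, 34.9 and 28.2 at day 9, against 402, 327 and 349 at day 3 (212641_at, change -3.26 ± 0.43 (SE), adjusted p = 0.000208), and its brighter probe set also fell (-2.05 ± 0.24 (SE), adjusted p = 8.68e-05). No array of either group overlapped in these 2 genes. EGR1, the immediate early zinc finger factor that growth signals induce, read 178, 62.8 and 14.3 at day 9, against 239, 3277 and 460.3 at day 3 (227404_s_at), where day 3 replicate 2 alone sets much of the difference. Its change of -3.71 ± 1.07 (SE), adjusted p = 0.0349, was not called without any 1 of day 9 replicates 2 and 3 and day 3 replicates 2 and 3 (adjusted p 0.0679 to 0.167). The brighter EGR1 probe set (201694_s_at) behaved alike, at -2.84 ± 0.84 (SE), adjusted p = 0.0389, and adjusted p = 0.0636 with the culture round as a replicate block. Averaged over its probe sets EGR1 gave -2.45 (adjusted p = 0.0815). PMEPA1, an inhibitor of TGF-beta signalling, fell on 1 dim probe set (222450_at, 10.3, 66.6 and 9.22 at day 9, against 248, 245 and 329 at day 3, change -3.87 ± 0.79 (SE), adjusted p = 0.00447) but not on its brightest, which changed by -0.26 (adjusted p = 0.835). ANKRD12 (-3.90), the antisense RNA TMPO-AS1 (-3.43), RPP14 of nuclear ribonuclease P (-3.30) and the transcription factor USF3 (-3.27) complete the falls, with adjusted p values of 0.00336, 0.00195, 0.006 and 0.00428 in that order. The brightest probe sets of ANKRD12 and RPP14 did not pass (-0.69 and -0.20), and that of USF3 did (-1.84, adjusted p = 0.0194).

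The 12 largest rises held a stress transcription factor, a small GTPase, a histone gene and many probe sets of genes for ribosomal and RNA-binding proteins. ATF3, a stress-induced factor downstream of ATF4, read 3019, 2808 and 1794 at day 9, against 175, 231 and 175 at day 3 (1554420_at), and all day 9 arrays stood well above day 3 (log2 change 3.69 ± 0.65 (SE), adjusted p = 0.00169). Before doxycycline ATF3 read 469, 963 and 314 on this probe set, above all day 3 arrays. Its brightest probe set (202672_s_at) read 29353, 22462 and 18218 at day 9, against 5635, 12812 and 4079.8 at day 3, also without overlap, but its change of 1.78 ± 0.62 (SE), adjusted p = 0.0777, did not pass (adjusted p = 0.0374 with the culture round as a replicate block). The day 0 arrays of 202672_s_at read 12436, 20636 and 2170 and overlapped both groups. RHOB, a stress-inducible GTPase of endosomes, had 3306, 2693 and 1713 at day 9, against 229, 589 and 220.2 at day 3 (1553962_s_at, change 3.00 ± 0.68 (SE), adjusted p = 0.00892), and its brighter probe set read 20220.4, 17768 and 12641 at day 9, against 7119, 10804 and 3759 at day 3 without passing (adjusted p = 0.155). H2BC21, an H2B histone gene whose transcripts can be polyadenylated, read 2554, 2459 and 6929 at day 9, against 317, 331 and 314 at day 3 (202708_s_at). The day 3 arrays of H2BC21 were nearly alike and day 9 replicate 3 was far above its group, with a change of 3.46 ± 0.45 (SE), adjusted p = 0.000205. TAF1D, a subunit of the factor that starts ribosomal RNA transcription, read 2378, 3546 and 4973 at day 9, against 395, 452 and 405 at day 3 (218750_at, change 3.06 ± 0.33 (SE), adjusted p = 5.15e-05). CCNL1, a cyclin of the splicing machinery, read 427, 531 and 661 at day 9, against 53.1, 43.0 and 38.0 at day 3 (1555827_at, change 3.58 ± 0.35 (SE), adjusted p = 2.96e-05), with a brightest probe set at 1.12 (adjusted p = 0.0871). HNRNPA1, which binds nascent RNA and steers splicing, passed on its brightest probe set too: it rose by 3.17 ± 0.36 (SE), adjusted p = 8.28e-05 on 222040_at and by 1.22 ± 0.26 (SE), adjusted p = 0.00588 on 214280_x_at, where it read 16919.5, 13841 and 18109 at day 9, against 6652, 9887 and 5140.1 at day 3.

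For the remaining rises the brightest probe set did not pass. NACA, which shields new peptide chains at the ribosome, read 2595, 2799 and 6558 at day 9, against 356, 266 and 231 at day 3 on 222018_at, a change of 3.70 ± 0.42 (SE), adjusted p = 8.42e-05. Its brightest probe set overlapped between the groups, with a change of 0.34 ± 0.23 (SE), adjusted p = 0.391, and a 95% interval of -0.14 to 0.83. VIM, the intermediate filament vimentin, gave 3.44 on 1555938_x_at (adjusted p = 8.9e-05) and 0.23 on its brightest (adjusted p = 0.707). The same held for RPS14 (3.05 and 0.34), EIF4G2 (3.18 and 0.12), MRPL39 (3.06 and 0.05) and RPL7 (3.34 and 0.35), where none of the brightest probe sets passed. RPS14 had a further dim probe set that rose (214245_at, 2.54 ± 0.36 (SE), adjusted p = 0.000377), so 2 of its 3 tested probe sets were called. The RPL7 call was lost without day 9 replicate 3 (adjusted p = 0.109) or day 3 replicate 2 (adjusted p = 0.0942). Day 3 was not always the level before doxycycline. As in ATF3, day 0 arrays lay above all day 3 arrays in NACA (380.4, 533 and 547 on 222018_at). The same held for the named probe sets of TAF1D, HNRNPA1 (222040_at) and RPS14 (241241_at). In RHOB, H2BC21, CCNL1, VIM, RPL7, EIF4G2 and MRPL39 the day 0 and day 3 arrays overlapped. With 32 signal units added before taking log2, which shrinks differences of dim probe sets, the 12 falls measured -2.97 to -1.71, against -4.91 to -3.26 with nothing added, and the 12 rises 2.27 to 3.55, against 3.00 to 3.70. The order within the falls changed too, with EGR1 (-2.967) and PPP1R10 (-2.875) then ahead of VANGL1 (-2.709), TMCC1 (-2.362) and KCNC1 (-2.339). In 7 of the 12 falls all day 9 arrays were under the filter signal of 57.2, so the size and order of these falls depend on very low signals. Of the 12 rises 4 had at least 1 day 3 array under that signal (CCNL1, EIF4G2, RPS14 and RPL7). Their order changed as well, with CCNL1 (2.883) then behind H2BC21 (3.333) and TAF1D (2.967).

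**Figure D3:**
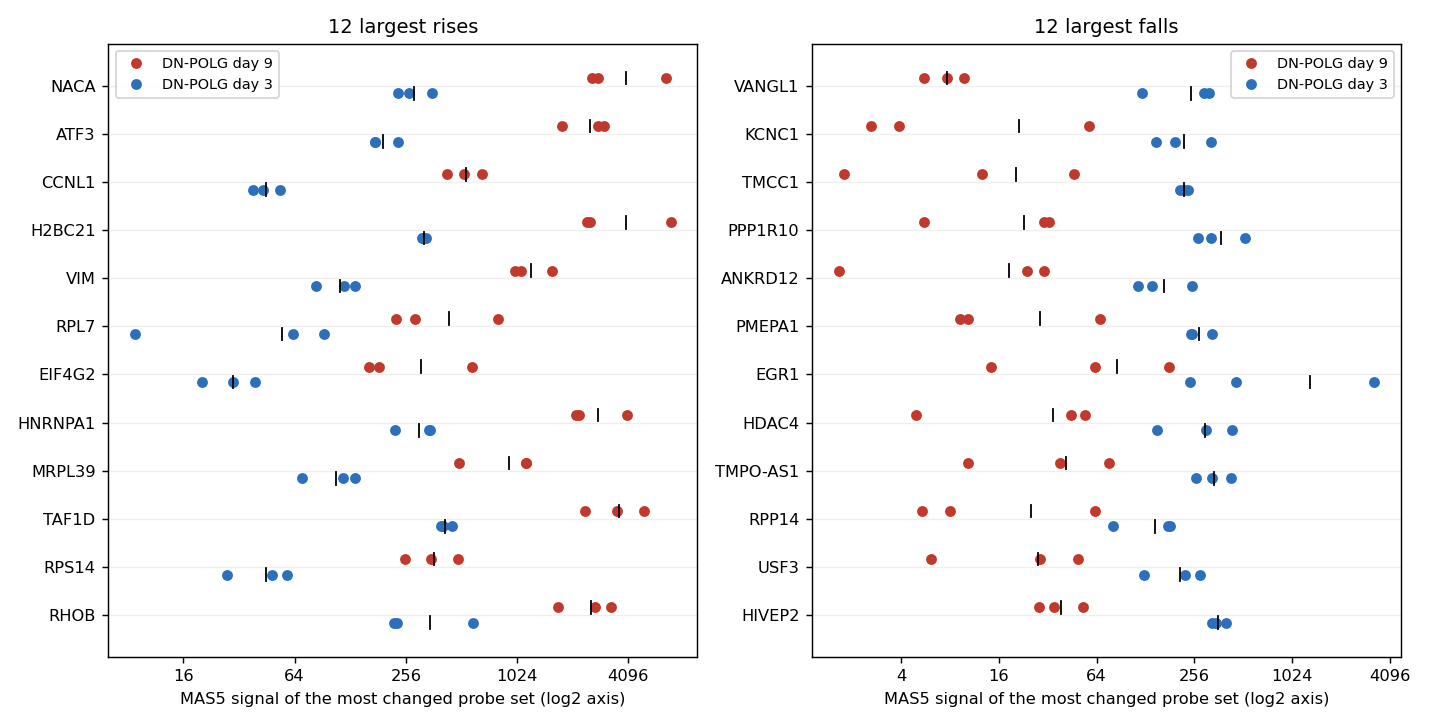
MAS5 signal (log2 axis) of the most changed probe set of the 12 genes with the largest rises (left) and the 12 with the largest falls (right), with 3 day 9 arrays in red above 3 day 3 arrays in blue and the arithmetic mean as a tick. The groups of each gene do not overlap, which the rule for naming these genes required, and many day 9 signals of the falls lie below the filter signal of 57.2.

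Promoters are shown for a pair of ATF4-linked genes, ATF3 and ASNS, and for EGR1, as the windows in which letters matching known response elements were searched. The core of the amino acid response element, TGATGNAA, was searched on both strands, and capitals mark the match. It lies 191 bases before the start of ATF3 and 68 bases before that of ASNS. For each of these 2 genes 1 of 2 listed promoters is given, chosen because it holds a match, which the other lacks. Sequences are 300 bases from RefSeq (GRCh38.p14), at chr1:212565157-212565456, plus strand, and chr7:97872359-97872658, minus strand, written 5′ to 3′ along the gene.
ATF3: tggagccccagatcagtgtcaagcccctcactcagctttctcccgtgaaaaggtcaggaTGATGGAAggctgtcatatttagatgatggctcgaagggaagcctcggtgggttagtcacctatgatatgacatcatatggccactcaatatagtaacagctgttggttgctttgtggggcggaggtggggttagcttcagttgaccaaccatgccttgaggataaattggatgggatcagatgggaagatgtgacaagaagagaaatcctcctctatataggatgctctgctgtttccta
ASNS: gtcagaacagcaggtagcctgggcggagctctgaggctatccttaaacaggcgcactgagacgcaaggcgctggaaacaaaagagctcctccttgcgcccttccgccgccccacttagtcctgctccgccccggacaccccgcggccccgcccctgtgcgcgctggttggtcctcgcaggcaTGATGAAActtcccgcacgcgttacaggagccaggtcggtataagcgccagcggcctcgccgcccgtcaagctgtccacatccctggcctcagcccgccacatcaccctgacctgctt
The element was found in 3.62% of 35116 promoters of the same length. Among tested ATF4 targets with a listed promoter, 7 of 24 genes had it in at least 1 promoter. These shares are not alike, since the first counts promoters and the second genes, which can have more than 1. In EGR1 (chr5:138465229-138465528, plus strand) capitals mark 2 CArG boxes, the element that serum response factor binds, 105 and 83 bases before the start.
EGR1: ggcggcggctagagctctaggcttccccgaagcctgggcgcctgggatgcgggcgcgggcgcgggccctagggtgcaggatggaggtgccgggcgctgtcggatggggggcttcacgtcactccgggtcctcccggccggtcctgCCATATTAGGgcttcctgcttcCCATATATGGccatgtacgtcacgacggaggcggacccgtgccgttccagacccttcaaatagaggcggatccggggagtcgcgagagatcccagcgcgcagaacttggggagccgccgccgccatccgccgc
A CArG box was found in 1.29% of all promoters and, among 16 tested immediate early genes with a listed promoter, in EGR1 alone. A match describes letters in this window and not a bound site.

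Genes of the ATF4 response were higher at day 9 for some members, while most did not pass the test. Of 29 tested ATF4 targets 5 were called higher (ATF3, MTHFD2, CEBPG, NUPR1 and STC2), beside 5.11% of all genes, 2 lower (SLC7A1 and SLC38A2), beside 12.8%, and 22 were not called, with a median change of 0.51 beside -0.07 over all genes. STC2, a secreted glycoprotein of the stress response, read 1348, 1287 and 1450.1 at day 9, against 623, 569 and 522 at day 3 (203439_s_at). All its day 9 arrays were above all day 3 arrays (log2 change 1.25 ± 0.29 (SE), adjusted p = 0.00952). Its second probe set had the opposite sign without passing (-0.39, adjusted p = 0.284), and the mean of both gave 0.43 and lost the call (adjusted p = 0.218). MTHFD2, the mitochondrial folate enzyme that makes one-carbon units, read 17408, 15429 and 14401 at day 9, against 10759.7, 9759.9 and 9921 at day 3 (201761_at), a smaller but even change of 0.63 ± 0.16 (SE), adjusted p = 0.017. That call was lost with the culture round as a replicate block (adjusted p = 0.0552), without day 9 replicate 1 (0.073) and without day 3 replicate 3 (0.0658). After quantile normalization the MTHFD2 change was 0.339 (adjusted p = 0.2). The call was lost too with the 6 arrays of days 3 and 9 alone (0.0645), the 9 arrays of days 3, 6 and 9 (0.0949) and no signal filter (0.0524). SLC38A2, the amino acid transporter SNAT2, went the other way at 2858, 3573 and 2835 at day 9, against 7992, 5671 and 8406 at day 3 (222982_x_at, change -1.24 ± 0.23 (SE), adjusted p = 0.00254). Its groups did not overlap, and the fall was called in each alternative run.

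ATF4 itself did not pass. Its signals were 38391, 26808 and 35055 at day 9, against 17348, 28124 and 17280.4 at day 3 (200779_at), with day 3 replicate 2 inside the day 9 range and a change of 0.70 ± 0.27 (SE), adjusted p = 0.11. ASNS, asparagine synthetase, was higher on all 3 day 9 arrays at 35729, 22993 and 21729.9 at day 9, against 17102, 11399 and 17974 at day 3 (205047_s_at), without passing (change 0.78 ± 0.26 (SE), adjusted p = 0.0675, and adjusted p = 0.0486 with the replicate block). Such a gap was found in 7940 of 23132 tested probe sets, most of them not called. DDIT3, the factor CHOP, read 3413, 2445 and 2092 at day 9, against 1228, 1553 and 1936 at day 3 (209383_at), again apart but not called (adjusted p = 0.148). GDF15, a circulating marker of mitochondrial disease, read 2337, 2760.2 and 1321 at day 9, against 932, 831 and 1672 at day 3 (221577_x_at), where day 9 replicate 3 fell inside the day 3 range (change 0.91 ± 0.33 (SE), adjusted p = 0.0947). FGF21 and BHMT lay under the signal filter and were not tested. Of 16 kinases and regulators of the integrated stress response only EIF2AK4, the amino acid sensor GCN2, was called, beside 17.2% of all genes: it rose by 2.10 ± 0.32 (SE), adjusted p = 0.000585 on 237145_at, at 766, 939 and 909 at day 9, against 249, 188 and 177 at day 3. Its brightest probe set changed by -0.35 (adjusted p = 0.701), so its probe sets disagree in sign.

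Other stress groups held single called members, beside 5.11% of all genes with a higher and 12.8% with a lower call. Of 19 endoplasmic reticulum stress genes ERN1, the sensor IRE1, was called, at 697, 808 and 582 at day 9, against 132.5, 150.5 and 136 at day 3 on 235745_at (change 2.31 ± 0.23 (SE), adjusted p = 2.96e-05), while its brightest probe set changed by -0.20. Of 18 genes for mitochondrial chaperones and proteases HSPD1, which encodes HSP60, was called on 1 dim probe set (241716_at, 2.48, adjusted p = 0.00955, and 0.0548 without day 9 replicate 3). The brightest HSPD1 probe set overlapped between groups, at 54365, 34281 and 37627 at day 9, against 29007, 50009 and 27408 at day 3 (adjusted p = 0.58). Of 13 cytosolic heat shock genes DNAJB1, a partner of HSP70, fell, with a change of -1.11 ± 0.25 (SE), adjusted p = 0.00825, at 739, 838 and 535 at day 9, against 1210.4, 1897 and 1439.5 at day 3 (200666_s_at). Its other probe set had a change of 0.32 without passing (adjusted p = 0.431), and the call was lost when both were averaged (-0.39, adjusted p = 0.223). Of 19 p53 target genes 1 was called higher, GADD45B, a stress gene of growth arrest, at 3683, 5039 and 3638 at day 9, against 453, 1346 and 1195 at day 3 (207574_s_at). Its day 9 arrays were all above day 3, with a change of 2.18 ± 0.47 (SE), adjusted p = 0.00657. Of 24 immediate early genes 3 rose (JUNB, DUSP1 and CCN1) and 3 fell (EGR1, EGR3 and DUSP4), beside 5.11% and 12.8% of all genes, with a median of 0.36. JUNB, a subunit of AP-1, read 468, 669.9 and 829.8 at day 9, against 162, 343 and 208 at day 3 (201473_at, change 1.497 ± 0.33 (SE), adjusted p = 0.00775). CCN1, a secreted matrix protein, read 23898, 21988 and 12514 at day 9, against 5604, 9069.6 and 4148 at day 3 (201289_at) and rose by 1.65 ± 0.38 (SE), adjusted p = 0.00963, a call lost without day 3 replicate 3 (adjusted p = 0.0601).

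Calls among genes of one-carbon, polyamine and lipid metabolism rested on 2 or 3 members each. Of 21 serine and folate enzymes 3 were called higher (MTHFD2, MTHFD2L and GART), beside 5.11% of all genes, and none lower, with a median of 0.18. GART, which catalyses several steps of purine synthesis, rose on 1 of its 8 tested probe sets (230097_at), at 3186, 3189 and 2789 at day 9, against 546, 516 and 382 at day 3 (change 2.68 ± 0.35 (SE), adjusted p = 0.000193). Its brightest probe set read 6474, 5104 and 4555 at day 9, against 5492, 6332 and 5368 at day 3 and did not pass (change -0.10 ± 0.19 (SE), adjusted p = 0.802). PHGDH, the first enzyme of serine synthesis, was higher on all 3 day 9 arrays at 10998, 7699 and 9331 at day 9, against 6038, 5773 and 6062 at day 3 (201397_at), without passing (adjusted p = 0.0643). In the methionine cycle 3 of 14 genes were called, all lower (MAT2A, MTR and MTRR), beside 12.8% of all genes, with a median of 0.02. MTRR, which reactivates methionine synthase, read 1174, 999.8 and 691 at day 9, against 2142, 1853 and 2089.8 at day 3 (203200_s_at). The change of -1.12 ± 0.23 (SE), adjusted p = 0.00529, had no overlap between groups, but the call was lost when the probe sets of MTRR were averaged (adjusted p = 0.0697).

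In polyamine metabolism 2 of 19 genes were called, both higher (SAT1 and SMOX), beside 5.11% of all genes. SAT1, which acetylates spermidine and spermine for export or breakdown, had 3 tested probe sets, all higher on every day 9 array. The brightest (210592_s_at) read 54308, 42276 and 48482 at day 9, against 23382, 28324 and 14963 at day 3, and its change of 1.16 ± 0.27 (SE), adjusted p = 0.00949, lost the call without day 3 replicate 3 (adjusted p = 0.0615). A second one (213988_s_at) rose by 1.498 ± 0.31 (SE), adjusted p = 0.00472, and the third (203455_s_at) changed by 0.75 without passing (adjusted p = 0.0864). The 3 SAT1 probe sets share their direction and leave a gap between the groups. In cholesterol synthesis 2 of 19 genes were likewise called higher (SQLE and INSIG1), beside 5.11% of all genes, with a median of 0.02. SQLE, squalene epoxidase, rose on a dim probe set (1557352_at, 2.65 ± 0.39 (SE), adjusted p = 0.000544) and not on its brightest (-0.09, adjusted p = 0.918). Of 17 cytosolic transfer RNA synthetases 3 were called higher (GARS1, SARS1 and TARS1), beside 5.11% of all genes, with a median of 0.37. TARS1, the threonine enzyme, gave 1.52 on 240206_at (adjusted p = 0.000376), at 275, 274 and 237 at day 9, against 63.6, 114 and 104 at day 3. Its brightest probe set gave 0.21 and did not pass. MYC, a growth regulator that also drives nucleotide synthesis, read 1275, 1365 and 823 at day 9, against 1412, 873 and 1037 at day 3 (202431_s_at, change 0.06 ± 0.53 (SE), adjusted p = 0.965), with a 95% interval of -1.08 to 1.19. MFSD2A, a transporter of lysophospholipids, did not pass on either probe set, the brighter reading 355, 410.0 and 378 at day 9, against 411, 428 and 447 at day 3 (225316_at, adjusted p = 0.742).

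Nuclear genes for mitochondrial proteins had mostly small positive changes. Of 33 nuclear complex I subunits 5 were called higher and none lower, with a median of 0.36, and of 32 subunits of complexes III to V 4 were called higher (COX4I1, COX5B, COX7C and ATP5F1C), with a median of 0.41, beside 5.11% of all genes with a higher call. The corresponding figures were 2 of 53 for mitochondrial ribosomal proteins (0.21) and 0 of 27 for the TCA cycle and pyruvate entry (0.23). These medians move with the scaling: after quantile normalization they were 0.13 for complex I, 0.09 for complexes III to V, 0.13 for mitochondrial ribosomal proteins and 0.095 for the TCA cycle. NDUFB8, a complex I subunit, rose on 214241_at at 682, 687 and 877 at day 9, against 239, 301 and 197 at day 3 (change 1.62 ± 0.25 (SE), adjusted p = 0.0006), while its brightest probe set read 15171, 14277 and 14439 at day 9, against 9627, 13456 and 9312 at day 3 and did not pass (adjusted p = 0.216). NDUFA10, another subunit, rose on 1554719_at (2.06 ± 0.35 (SE), adjusted p = 0.00136) and not on its brightest (0.07, 95% interval -0.29 to 0.43). ATP5F1C, the gamma subunit of ATP synthase, behaved alike, with 1.88 ± 0.38 (SE), adjusted p = 0.00425, on 214132_at and 0.14 on the brightest. In NDUFB8, NDUFA10 and ATP5F1C the called probe set was thus a dimmer one. NDUFB6 of complex I and COX5B of complex IV were instead called on their brightest, NDUFB6 at 8030.0, 8341 and 8960 at day 9, against 5856, 4855 and 4888 at day 3 (203613_s_at, change 0.70 ± 0.16 (SE), adjusted p = 0.0107). COX5B gave 0.62 ± 0.19 (SE), adjusted p = 0.0478, on 213735_s_at.

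Of 14 tested regulators of mitochondrial biogenesis 3 were called lower only (PPARGC1B, NRF1 and GABPB1), beside 12.8% of all genes with a lower call, and PPARA had probe sets called in both directions, with a median of -0.30. NRF1, a nuclear activator of respiratory genes, read 290.0, 256 and 174 at day 9, against 524, 493 and 572 at day 3 (204651_at), and no array overlapped (change -1.17 ± 0.23 (SE), adjusted p = 0.00388). GABPB1, a subunit of GA-binding protein, another such activator, fell on 204618_s_at at 328, 338 and 219 at day 9, against 775, 829.8 and 1049 at day 3 (change -1.60 ± 0.21 (SE), adjusted p = 0.000208), and its brightest probe set gave 0.60 (adjusted p = 0.274). PPARA, the nuclear receptor of fatty acid oxidation, had 6 tested probe sets. The brightest (223437_at) read 65.6, 88.8 and 57.6 at day 9, against 336, 216 and 270.1 at day 3 and fell clearly, with a change of -1.96 ± 0.23 (SE), adjusted p = 9.73e-05. A second (226978_at) read 103, 15.2 and 4.18 at day 9, against 224, 191 and 363 at day 3, a change of -3.74 ± 0.76 (SE), adjusted p = 0.00445. The probe sets 223438_s_at (-1.13) and 244689_at (-1.47) were called lower and 1560981_a_at higher (1.05), but with the culture round as a replicate block these had adjusted p values of 0.0607, 0.0624 and 0.0613. The last probe set, 206870_at, changed by -0.59 (adjusted p = 0.344).

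Splicing genes were called in both directions: of 31 tested, 8 were higher only, 3 lower only and SRSF5 both, with a median of 0.21, so that 12 of 31 were called beside 17.2% of all genes. They had 3.77 tested probe sets per gene on average, against 1.91 over all genes, which gives more chances of a call, and by the brightest probe set alone 4 of 31 were called, beside 10.1% of all genes. CLK1, a kinase of splicing factors, read 1227, 1922 and 1743 at day 9, against 570.3, 839.9 and 611 at day 3 (214683_s_at), all day 9 arrays being higher (change 1.27 ± 0.27 (SE), adjusted p = 0.00652). Of 39 cytosolic ribosomal protein genes 7 were called higher, beside 5.11% of all genes, and none lower, yet in no case was the brightest probe set called. All 39 brightest probe sets had positive changes, from 0.14 to 0.64, with a median of 0.35 that became 0.02 after quantile normalization. RPS19 and RPS24, subunits of the small ribosomal particle, show the pattern, with 1.95 on 242451_x_at (adjusted p = 9.52e-05) and 2.17 on 1555878_at (adjusted p = 0.000253), against 0.35 and 0.31 on their brightest. The brightest RPS24 probe set read 48393, 30702 and 38778 at day 9, against 27462, 44125 and 24758 at day 3, with day 3 replicate 2 within the day 9 range. Ribosomal protein genes have many processed copies in the genome, so which transcript a probe set reads is uncertain.

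Of 13 tested core and linker histone genes 3 were called higher (H2AJ, H2BC5 and H2BC21), beside 5.11% of all genes, and none lower, with the highest median of the 39 lists, 0.75. H2BC5 read 1601, 1420.4 and 2918 at day 9, against 589, 633 and 656 at day 3 (222067_x_at, change 1.59 ± 0.29 (SE), adjusted p = 0.00228), with day 9 replicate 3 again the highest, and histone genes are near copies of each other that probes can confuse. Nuclear-retained long noncoding RNAs split evenly, with 3 higher and 3 lower of 9, beside 5.11% and 12.8% of all genes. They had 3.56 tested probe sets per gene on average, against 1.91 over all genes, which gives more chances of a call. By the brightest probe set alone 3 of 9 were called, beside 10.1% of all genes. MALAT1, an abundant RNA of nuclear speckles, had 12 tested probe sets. Its 224558_s_at rose at 3826, 4915 and 5422 at day 9, against 624, 1341 and 1069 at day 3 (change 2.28 ± 0.35 (SE), adjusted p = 0.000698), whereas the brightest read 15744, 25632 and 37322 at day 9, against 22334, 14659.8 and 20090.2 at day 3 and did not pass (adjusted p = 0.607). DLEU2, the host RNA of a microRNA cluster, fell on 1556821_x_at at 48.7, 56.5 and 65.0 at day 9, against 303, 361 and 338 at day 3 (change -2.56 ± 0.40 (SE), adjusted p = 0.000699) and gave -0.66 on its brightest (adjusted p = 0.222).

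Of 15 genes of DNA methylation and demethylation 3 fell (TET1, TET2 and TDG) and MBD4 rose, with a median of -0.18, beside 12.8% of all genes with a lower and 5.11% with a higher call. TET2, a dioxygenase that oxidises 5-methylcytosine, read 56.6, 121 and 60.2 at day 9, against 283, 205 and 391 at day 3 (227624_at), and its groups did not overlap (change -1.93 ± 0.37 (SE), adjusted p = 0.00325). TET1, of the same family, fell on a dim probe set (214862_x_at) at 55.3, 38.4 and 21.6 at day 9, against 251, 162 and 290.0 at day 3 (change -2.67 ± 0.33 (SE), adjusted p = 0.000153), while its brightest was lower on every day 9 array without passing (-0.40, adjusted p = 0.178). TDG, the glycosylase that removes the oxidised base, read 2830.4, 3455 and 2754 at day 9, against 6146, 4858 and 6451 at day 3 (203743_s_at, change -0.95 ± 0.20 (SE), adjusted p = 0.00618), a call that averaging the probe sets of TDG ended (adjusted p = 0.254).

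Regulators of kidney and neural development fell in several members: of 16 tested, 6 were lower (EYA1, EYA4, SIX4, SALL2, SIM1 and MEIS2) and none higher, with a median of -0.63, beside 12.8% of all genes with a lower call. EYA1, a phosphatase and coactivator of transcription in the embryonic kidney, read 57.5, 89.2 and 73.0 at day 9, against 227, 262 and 300.2 at day 3 (214608_s_at). The values at day 9 were well below those at day 3 (change -1.86 ± 0.24 (SE), adjusted p = 0.000208). SALL2, a zinc finger factor, read 982, 973 and 664 at day 9, against 1921, 1626 and 1674 at day 3 (213283_s_at, change -1.01 ± 0.22 (SE), adjusted p = 0.00703). EYA4 changed by -1.04 ± 0.21 (SE), adjusted p = 0.00496, a call lost with arrays set to one median (adjusted p = 0.0526). EYA1 and SALL2 are also on the HEK293 marker list, whose other tested members include VIM, called higher on 1 probe set, and whose median was 0.17. In mitosis 3 of 35 genes were lower, beside 12.8% of all genes, 1 was higher, beside 5.11%, and 31 were not called, with a median of -0.21. KIF11, the motor that separates spindle poles, read 1282, 1638 and 1647 at day 9, against 3861, 3394 and 3637 at day 3 (204444_at) with no overlap (change -1.26 ± 0.22 (SE), adjusted p = 0.00192). Of 35 genes of nuclear DNA replication 3 were lower (ORC6, POLE2 and CCNE2), beside 12.8% of all genes, with a median of -0.02. LAMA4, a laminin chain of basement membranes, was the only called member of 18 collagen and laminin genes, beside 17.2% of all genes. It read 839, 627 and 1010.3 at day 9, against 263, 401 and 258 at day 3 (210089_s_at, change 1.43 ± 0.28 (SE), adjusted p = 0.00362), though the mean of its 3 probe sets did not pass (adjusted p = 0.0535).

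The remaining lists had calls near or below the background of 17.2%. Called were 4 of 19 hypoxia-responsive genes (3 higher, ADM, MXI1 and BHLHE40, and P4HA2 lower), 1 of 22 glycolysis genes (SLC2A3, higher), 1 of 17 NRF2 targets (FTL, higher) and 5 of 27 lysosome and autophagy genes (FNIP1 and SQSTM1 higher, FLCN, FNIP2 and ATG5 lower). Mitochondrial dynamics gave 1 of 19 (FIS1, higher), NAD synthesis and NADH shuttles 3 of 22 (NAMPT and GPD1L higher, NMNAT1 lower), mtDNA maintenance 1 of 22 (TOP3A, lower) and interferon-stimulated genes 1 of 16 (IFI6, higher). None of 9 transsulfuration and glutathione genes was called. The lists differ in size and in number of probe sets per gene, and nothing is read from their order.

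**Figure D4:**
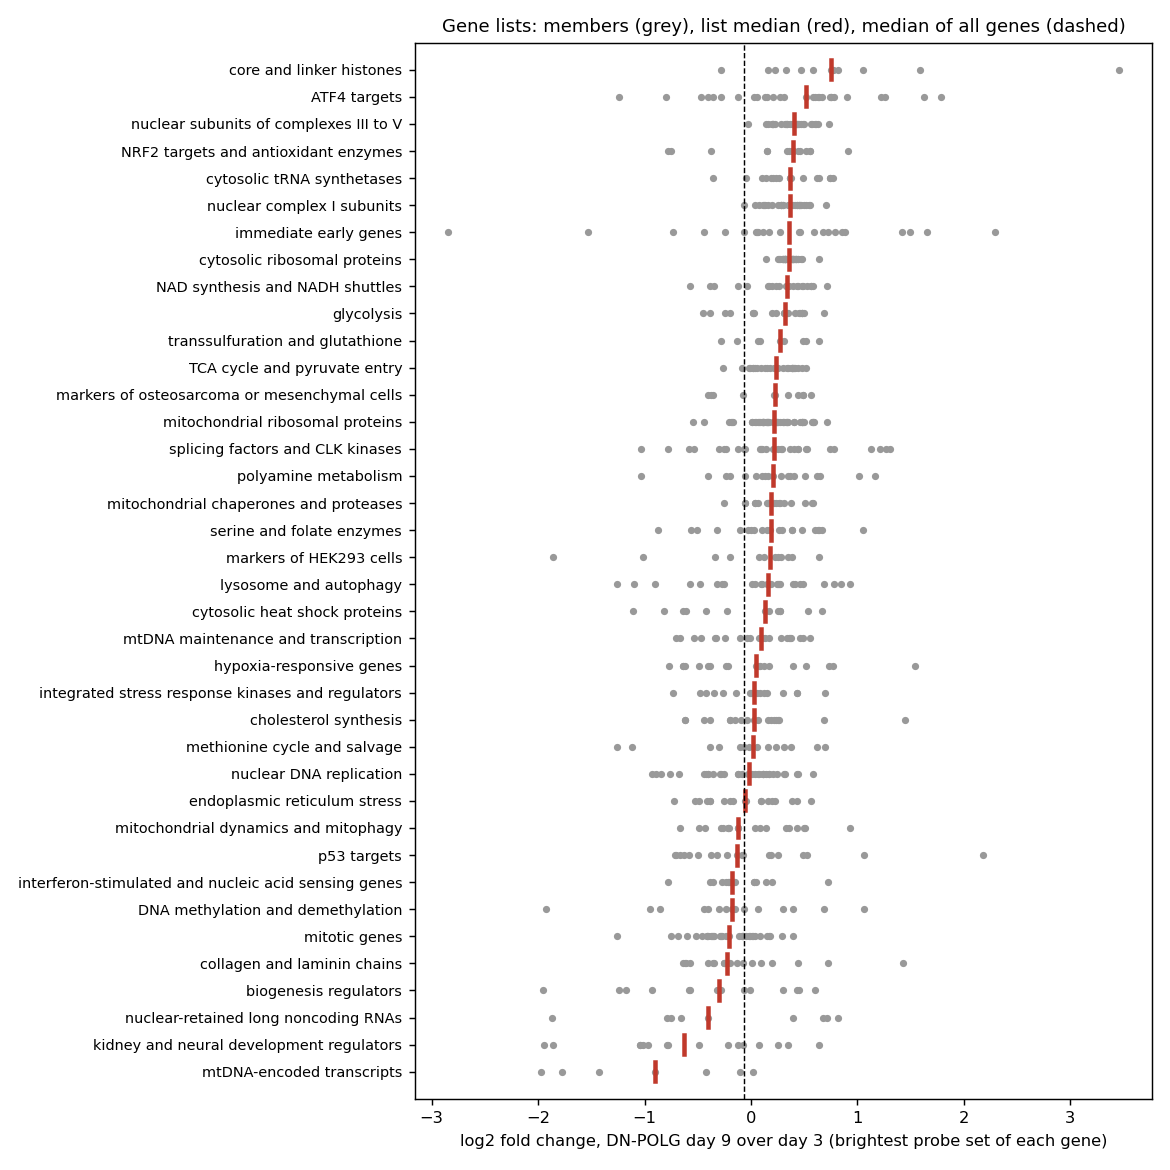
Log2 change of day 9 over day 3 (horizontal) for the brightest probe set of every tested member (grey points) of each gene list except blood and endothelial markers, ordered by the list median (red bar), with the median over all genes as a dashed line. Histones (0.75) and ATF4 targets (0.51) stand at the top, kidney and neural regulators (-0.63) and mtDNA-encoded transcripts (-0.90) at the bottom, and the points of most lists lie on both sides of 0.

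Signals at day 6 lay between those of days 3 and 9 for many of these genes. Over called probe sets the median log2 difference was 0.69 for day 6 minus day 3 and 0.57 for day 9 minus day 6 among higher calls, and -0.77 and -0.51 among lower calls. These differences share arrays with the comparison itself and are given as a description. COX2 read 23162, 23808 and 18079 at day 6, ATP6 10732, 2953 and 7698 and VANGL1 (229492_at) 81.2, 56.8 and 123. ATF3 (1554420_at) was uneven there, at 101, 1395 and 559. Day 6 replicate 1, the lowest of these, stood apart with a 3′ to 5′ ACTB ratio of 8.92. EIF2AK4 (237145_at) read 1502, 606 and 1072 at day 6, with 2 of the 3 arrays above all those of day 9.

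AOX/NDI1 cells, which carry the same inducible transgene together with an alternative oxidase and a yeast NADH dehydrogenase, share no array with the comparison and entered the fit only through its spread and signal filter, and their day 9 and day 0 arrays gave levels of the same probe sets. Of the 689 probe sets called higher in DN-POLG cells 673 (97.7%) were higher in AOX/NDI1 cells at day 9 than at day 0, and of the 1907 called lower 1891 (99.2%) were lower, beside 46.9% and 53.1% of all tested probe sets. The median differences in AOX/NDI1 cells were 0.86 and -1.13, against 1.25 and -1.25 in DN-POLG cells. The intervals are not matched, since one starts at day 0 and the other at day 3, so no test was made. ATP6 read 5442, 3790.2 and 3797 at day 9 and 19102, 20972 and 19778 at day 0 in AOX/NDI1 cells, ATF3 (1554420_at) 2713, 2718 and 2428 and 472, 379.6 and 285, and EYA1 128, 87.4 and 74.4 and 261, 194 and 207. Each of these genes had no overlap between its day 9 and day 0 arrays in those cells. POLG (217635_s_at) read 4035, 2468 and 447 at day 9 there, so replicate 3 was close to the uninduced values. MYC read 1297, 964 and 1196 at day 9 and 2445, 3288 and 4100.2 at day 0 in AOX/NDI1 cells. Time on doxycycline and in culture ran along with mtDNA loss in both lines and cannot be told apart from it.

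**Figure D5:**
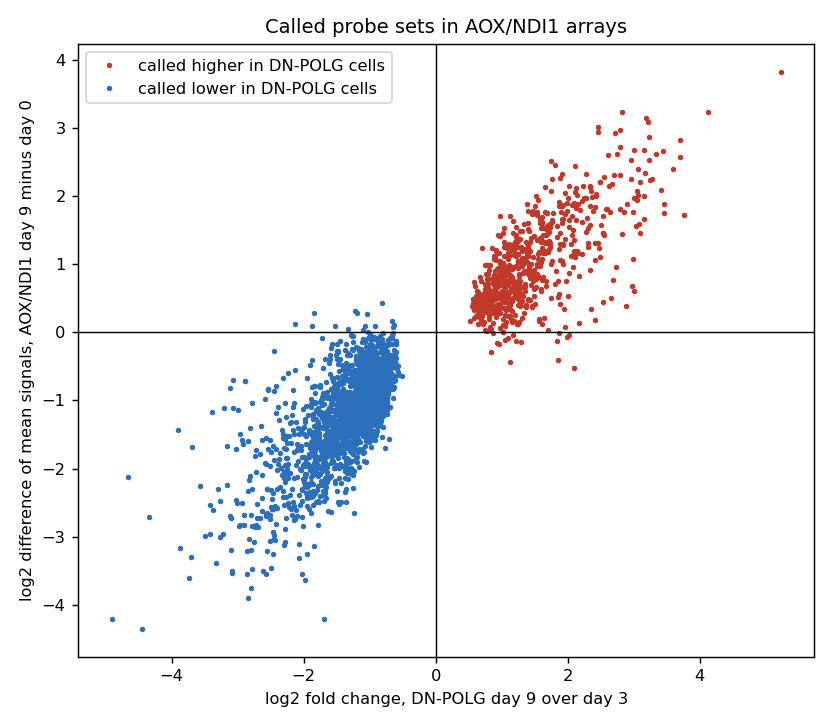
Log2 difference of mean signals, AOX/NDI1 day 9 minus day 0 (vertical), against the log2 change of DN-POLG day 9 over day 3 (horizontal), for 689 probe sets called higher (red) and 1907 called lower (blue) in DN-POLG cells. Nearly all red points lie above 0 and nearly all blue points below it, in arrays outside the comparison that entered the fit only through its spread and signal filter.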

How the data were processed

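RNA of the cultures was amplified from the 3′ end and hybridised by the authors to Affymetrix HG-U133 Plus 2.0 arrays. The deposited values are MAS5 signal intensities on a linear scale, made in Affymetrix Expression Console, with a trimmed mean of about 500 on each array. The genome build behind the probe annotation is not given in the sources used here. Here log2 of the deposited signal was taken with nothing added. The platform annotation gives exactly 1 gene symbol for 41097 of 54675 probe sets. Of these, the ones with a mean log2 signal over 18 HEK293 arrays of at least 5.84 (a signal of 57.2), 23132 of 12104 genes, were tested. All adjusted p values come from limma 3.58.1 in R 4.3.3, fitted to the 18 HEK293 arrays with 6 group means, for DN-POLG day 9 minus day 3, with Benjamini-Hochberg adjustment over all tested probe sets and a threshold of 0.05. A gene was called when any of its probe sets passed. The code was tested on simulated data.

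The number of arrays limits the precision. The study's scheme runs each culture round from 1 starter culture through all days, so same-numbered samples may be pairs. The main fit left the arrays unpaired, and the round was a block in 1 alternative only. The arrays did not bear out pairing by number: deviations of same-numbered day 9 and day 3 arrays correlated at -0.26, -0.37 and -0.11. Promoters came from RefSeq (GRCh38.p14).

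Named were POLG and the mtDNA genes; genes the paper names; the 12 largest rises and falls among called genes with arrays apart and all probe sets of 1 sign; and called members of 39 lists. The comparison, the members and the lists were chosen with earlier results of these data known, so no list was tested.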

Additional observations from a re-analysis of the deposited data

How the results depend on the processing

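The number of called genes, 2081, moved by more than 1.5 times in 5 of 14 settings: 1300 with the 9 arrays of DN-POLG days 3, 6 and 9 alone, 1387 with no signal filter, 1198 with a 75th percentile filter, 1191 with the probe sets of a gene averaged and 5586 with array weights. Genes higher only, 530, became 333, 352, 316, 265 and 2018 in these settings. Genes lower only, 1462, became 919 with the 9 arrays, 921 with arrays set to one median, 862 with the 75th percentile filter, 926 with averaged probe sets and 3074 with array weights. Leaving out 1 array gave 1145 to 2852 called genes (294 to 826 higher only, 807 to 1866 lower only). The highest counts came without day 6 replicate 1, which is outside the comparison, and those of the 6 arrays compared included 1305 without day 9 replicate 3, 1250 without day 3 replicate 1 and 1145 without day 3 replicate 3. With the culture round as a replicate block 1684 genes were called (427 higher only, 1195 lower only), 1622 of them among the 2081, and among the 75 named called probe sets the block ended 5 calls, given above with that value (MTHFD2, EGR1 201694_s_at and 3 of PPARA). The 3′ to 5′ ratio difference, day 9 minus day 3, was -0.474 to -0.118 for ACTB (-0.251 with all arrays) and -0.036 to 0.005 for GAPDH (-0.018) when 1 array was left out.

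Of 75 named called probe sets 46 held in each alternative that kept them and 29 lost the call in at least 1 (17 to 20 alternatives a probe set, since only 36 were tested under the 75th percentile filter and 44 without _x_at and _s_at probe sets), 15 of these on leaving out a single array; ANKRD12, RPP14 and PPARA 226978_at lost it only with the 6 arrays fitted alone. Averaging probe sets ended the calls of EGR1 227404_s_at, STC2, EIF2AK4, DNAJB1, MTRR, SQLE, GABPB1, MALAT1, TDG, LAMA4 and PMEPA1. None of the 75 named called probe sets changed direction in the alternatives run for it. Other called genes were not examined for this. Among named probe sets direction changed only in those that had not passed. After quantile normalization it did so in ND4 (-0.284), VIM (-0.074), EIF4G2 (-0.192), MRPL39 (-0.187), TARS1 (-0.074), NDUFA10 (-0.027), ATP5F1C (-0.16), HSPD1 (-0.066) and RPS24 (-0.034), and with array weights in COX1 (0.092), POLG 203366_at (-0.121) and MYC (-0.159). On leaving out 1 array the change spanned -0.271 to 0.197 in COX1, -0.078 to 0.195 in ND4, -0.047 to 0.195 in POLG 203366_at, -0.102 to 0.282 in MYC, -0.059 to 0.135 in MRPL39, -0.609 to 0.158 in PMEPA1 222449_at, -0.245 to 0.008 in GART and -0.251 to 0.08 in SQLE. The cause of these changes was not tested. List medians near 0 changed sign in at least 1 setting, among them those of methionine, cholesterol, heat shock, p53 and DNA replication genes. MAS5 signals are imprecise at low levels, which limits the size of the largest falls.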

Other observations

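Gene families grouped by symbol, chosen after their values were seen, differed in how often they were called. Of 372 tested genes with a ZNF symbol, mostly zinc finger transcription factors, 8 (2.15%) had a probe set called higher at day 9 and 80 (21.5%) one called lower, with a median log2 change of -0.43, beside 5.11% and 12.8% of all genes and a median of -0.07. Of 38 genes with a ZBTB symbol 3 were higher and 7 lower, with a median of -0.25. Of 386 antisense, divergent or intergenic RNA symbols 12 were higher and 31 lower, with a median of -0.12, and of 55 cytosolic RPL and RPS symbols 9 were higher and 0 lower by limma. These are counts without a test.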
